A study of Mus musculus with 2 samples.

Results

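The 10 genes described here encode enzymes of de novo purine and pyrimidine synthesis, and they were taken by symbol from the array annotation out of 12393 annotated genes. They are Cad, Dhodh, Umps and Ctps of the pyrimidine route, Ppat, Gart, Paics, Adsl and Adss of the purine route, and Prps1, which supplies a substrate of both. Their transcripts were compared between primitive haematopoietic stem cells (HSC) and maturing HSC of mouse bone marrow, with 1 Affymetrix array for each population. The cells were kept in culture for 30 minutes, sorted by flow cytometry and not treated, and the labels give no strain, age or surface phenotype. Each array was hybridised with cRNA made from a cloned, PCR-amplified cDNA library, so an intensity reports the make-up of that library. Neither population has a replicate, so the values below carry no error between samples and no p-value, and the number of arrays limits the precision.

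Cells make purine and pyrimidine nucleotides either from small precursors, the de novo route, or by salvage of bases and nucleosides. In the purine route the ring is built stepwise on phosphoribosyl pyrophosphate (PRPP) up to inosine monophosphate, which is then turned into AMP or GMP. In the pyrimidine route the ring is made first, as orotate, and joined to PRPP afterwards to give UMP, from which the other pyrimidines derive. Dividing blood progenitors need both routes for DNA and RNA, and HSC in the marrow divide rarely.

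The 10 genes did not go one way. In primitive HSC, Cad and Dhodh, which act before orotate in the pyrimidine route, were at least 4-fold higher, a size that 2 of 10 alternative settings lowered under 4-fold for both while they stayed higher. Umps and Ctps, which act after orotate, were at least 5.34-fold and 8.19-fold lower in primitive HSC on their brightest probe sets. The purine gene Adss was 4.30-fold lower. Each of these genes fell under 4-fold in at least 1 alternative setting while it stayed lower. Their log2 ratios nearest to 0 were -0.46 for Umps, -1.81 for Ctps and -1.98 for Adss. In all, 7 of the 10 genes were lower and 3 were higher in primitive HSC. Over all 8852 measured genes, 47.3% were lower and 52.7% higher. The median log2 ratio (primitive over maturing) of the 10 genes was -1.18, and that of all measured genes was 0.07. Where a transcript is lower in a population, fewer cells carrying it and less of it per cell cannot be told apart.

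Intensities are linear MAS5 signals scaled to the same trimmed mean on each array. A floor of 441.0, the pooled median intensity outside the control probe sets, replaced lower values before a ratio was taken, so a gene with 1 array at the floor has only a bound ("at least N-fold"). A gene is represented by its probe set of highest mean intensity. The 10 genes had 19 probe sets of their own, 13 of them above the floor on both arrays and 6 at the floor on 1 array. Of the 19, 6 were higher and 13 were lower in primitive HSC. The pooled SD of log2 ratios between probe sets of 1 gene was 0.82 over 1319 genes of the array, which is a spread between probes and not between samples.

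**Figure D1:**
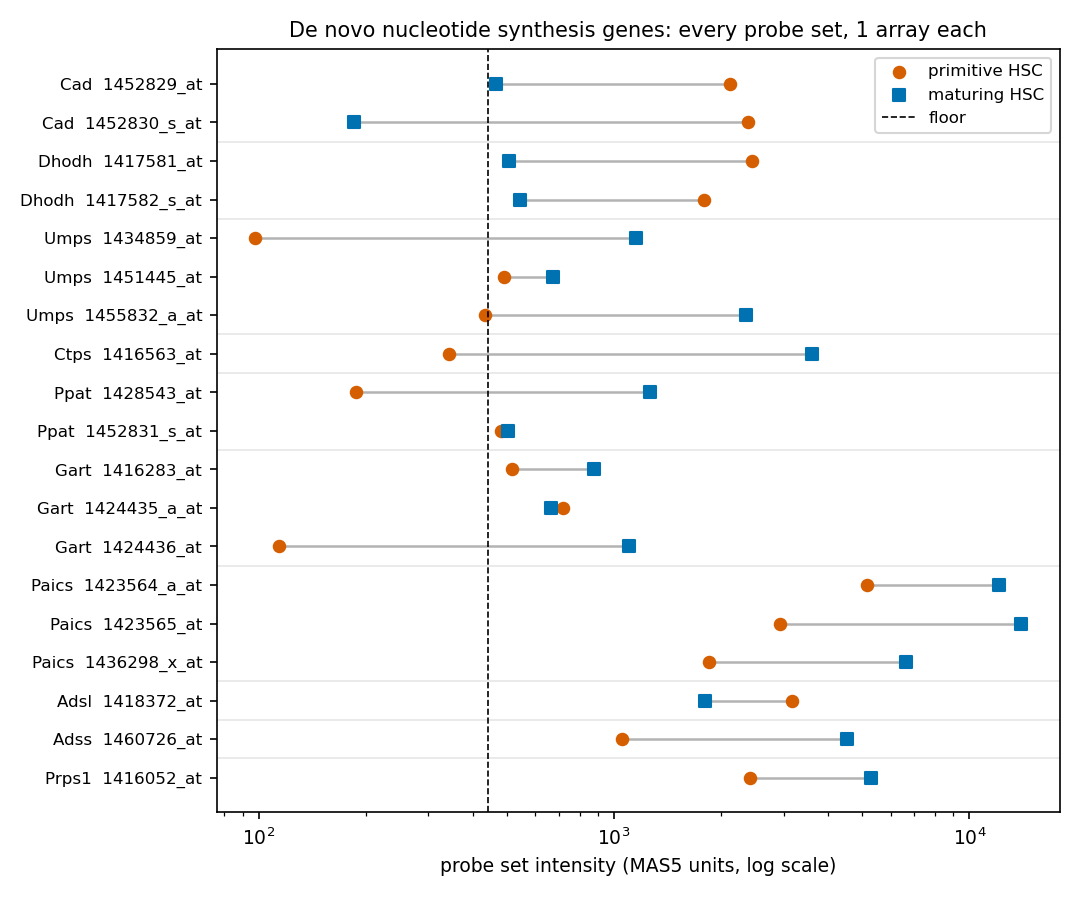
Intensity of every probe set of the 10 genes (log axis, MAS5 units) on the primitive HSC array (circles) and the maturing HSC array (squares), with the floor of 441.0 as a dashed line. The primitive value lies to the right for Cad, Dhodh, Adsl and 1 of 3 Gart probe sets, and to the left for the other 13 probe sets.

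Cad encodes the large protein that carries carbamoyl phosphate synthetase, aspartate transcarbamylase and dihydroorotase, the opening activities of pyrimidine synthesis. Its brighter probe set read 2125 in primitive HSC and 465.1 in maturing HSC, a log2 ratio of 2.19 (4.57-fold higher). Its other probe set read 2377 in primitive HSC and 185.5 in maturing HSC, which gives a bound of 2.43. The maturing values thus lay close to or under the floor, while both primitive values were well above it. Of all measured genes, 2.64% had a higher ratio than Cad.

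Dhodh encodes dihydroorotate dehydrogenase, the mitochondrial enzyme that makes orotate and passes electrons to ubiquinone. It read 2446 in primitive HSC and 505.4 in maturing HSC with a log2 ratio of 2.27 (4.84-fold higher), and its second probe set gave 1.72, from 1791 in primitive HSC and 544.5 in maturing HSC. All 4 probe sets of Cad and Dhodh were therefore higher in primitive HSC. They were the 2 genes of the 10 that were at least 4-fold higher there, as were 3.45% of all measured genes. Neither reached 4-fold on scaling to the hybridisation controls (log2 ratios of 1.21 for Cad and 1.30 for Dhodh) or with the floor at percentile 75 (1.05 for Cad and 1.25 for Dhodh). Dhodh was also just under 4-fold with the median of its probe sets.

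Umps encodes UMP synthase, which joins orotate to PRPP and decarboxylates the product to UMP. Its brightest probe set read 432.9 in primitive HSC, just under the floor, and 2353 in maturing HSC, so that the log2 ratio of -2.42 is a bound. The second probe set read 97.6 in primitive HSC and 1156 in maturing HSC (a bound of -1.39). The third read 489.7 in primitive HSC and 674.7 in maturing HSC (-0.46). The 3 probe sets shared a direction, but their ratios spread more widely than those of Cad or Dhodh.

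Ctps encodes CTP synthase, which aminates UTP to CTP and so makes the cytidine nucleotides. Its only probe set read 343.1 in primitive HSC and 3611 in maturing HSC, a bound of -3.03 and the lowest ratio of the 10 genes. Only 0.610% of measured genes had a lower ratio. Ctps2, the second CTP synthase gene, read 1171 in primitive HSC and 3097 in maturing HSC (log2 ratio -1.40), and its other probe set was under the floor on both arrays. Both CTP synthase genes were thus lower in primitive HSC.

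The promoter windows of Cad, at the entry of the pyrimidine route, and Ctps, at its end, are shown because these genes had opposite ratios. Each window runs from 250 bases before to 50 bases after the annotated start and is from RefSeq (GRCm38.p6), at chr5:31054530-31054829 on the plus strand for Cad and chr4:120570227-120570526 on the minus strand for Ctps. Capitals mark matches on either strand to 4 motifs, namely the E-box CACGTG, the core GCATGC of the NRF1 motif, the GC box GGGCGG and the CCAAT box CCAAT.
Cad: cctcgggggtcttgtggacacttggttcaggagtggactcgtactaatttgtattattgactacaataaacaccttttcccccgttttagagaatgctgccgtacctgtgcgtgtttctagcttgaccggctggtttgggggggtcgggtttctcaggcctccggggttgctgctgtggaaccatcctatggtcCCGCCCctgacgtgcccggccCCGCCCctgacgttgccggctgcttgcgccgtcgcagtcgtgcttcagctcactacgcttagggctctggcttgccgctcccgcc
Ctps: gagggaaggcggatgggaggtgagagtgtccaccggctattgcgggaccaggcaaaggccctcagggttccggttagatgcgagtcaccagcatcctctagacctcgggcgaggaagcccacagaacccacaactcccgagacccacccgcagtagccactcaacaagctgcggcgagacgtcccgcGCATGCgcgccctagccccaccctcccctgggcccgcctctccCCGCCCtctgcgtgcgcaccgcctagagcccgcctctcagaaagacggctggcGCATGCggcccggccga
The Cad window held 2 GC boxes and no match to the other motifs. The Ctps window held 2 NRF1 cores and 1 GC box. An NRF1 core was present in 7.93% of all 32851 promoter windows and a GC box in 35.7%, and no marked matches overlapped each other in either window. A match describes letters and does not show a bound site.

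On the purine route, 4 of 5 genes were lower in primitive HSC (47.3% of all measured genes), and Adsl was the exception. The median log2 ratio of the 5 genes was -1.24. The probe sets of Ppat and of Gart did not give one answer, as described next. Ppat encodes the amidotransferase that commits PRPP to purine synthesis. Its brighter probe set read 187.4 in primitive HSC and 1266 in maturing HSC, a bound of -1.52. The other probe set read 480.4 in primitive HSC and 502.6 in maturing HSC (-0.07), so the arrays differed clearly on 1 of its 2 probe sets only.

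Gart encodes a trifunctional enzyme that catalyses several of the early ring-building steps. Its probe sets disagreed. The probe set that represents it read 516.4 in primitive HSC and 875.8 in maturing HSC (log2 ratio -0.76). The second read 718.7 in primitive HSC and 665.9 in maturing HSC (0.11), and the third 113.8 in primitive HSC and 1103 in maturing HSC (a bound of -1.32). The gene's ratio of -0.76 became 0.23 after quantile normalization, and -0.76 is smaller than the spread between probe sets of a gene.

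Paics encodes the bifunctional enzyme that carboxylates the growing ring and then joins it to aspartate. It was bright on both arrays, with 5138 in primitive HSC and 12142 in maturing HSC on the probe set of highest mean (log2 ratio -1.24). Another read 2939 in primitive HSC and 14016 in maturing HSC (-2.25), and the third 1854 in primitive HSC and 6628 in maturing HSC (-1.84). All 3 probe sets were more than 2-fold lower in primitive HSC. After quantile normalization the ratio of the gene was -2.50, where the probe set of highest mean was chosen anew and can be another one.

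Ppat and Paics are neighbours on chromosome 5, and in chicken and human the pair is known to share a bidirectional promoter. All 3 Paics probe sets and 1 of 2 Ppat probe sets were clearly lower in primitive HSC, and the other Ppat probe set stood at -0.07. Their promoter windows are shown because the genes are neighbours on one route. In RefSeq (GRCm38.p6) the window of Paics is chr5:76951052-76951351 on the plus strand and that of Ppat is chr5:76951529-76951828 on the minus strand, with 177 bases between them. By these coordinates those bases lie after the annotated start of both genes, and not upstream of either start. Capitals mark the same 4 motifs.
Paics: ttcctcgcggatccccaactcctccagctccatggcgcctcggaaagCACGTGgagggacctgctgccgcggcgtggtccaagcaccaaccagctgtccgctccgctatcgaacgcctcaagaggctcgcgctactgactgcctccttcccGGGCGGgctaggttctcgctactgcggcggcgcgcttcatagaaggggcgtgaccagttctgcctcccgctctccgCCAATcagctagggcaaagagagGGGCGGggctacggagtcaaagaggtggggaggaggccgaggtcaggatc
Ppat: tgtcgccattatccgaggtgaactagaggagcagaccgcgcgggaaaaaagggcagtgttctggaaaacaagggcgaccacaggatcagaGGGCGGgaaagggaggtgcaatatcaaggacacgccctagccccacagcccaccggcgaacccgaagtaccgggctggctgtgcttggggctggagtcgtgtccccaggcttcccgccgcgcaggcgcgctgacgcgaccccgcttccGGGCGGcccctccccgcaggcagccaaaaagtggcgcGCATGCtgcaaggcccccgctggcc
The Paics window held an E-box, the site that Myc proteins can bind, together with a CCAAT box and 2 GC boxes. The Ppat window held 2 GC boxes and 1 NRF1 core. Over the 9 of 10 genes matched to a window (all but Dhodh), an E-box was found in the first listed window of 1 gene, an NRF1 core in 2, a CCAAT box in 3 and a GC box in 9. Among all windows, 7.15% held an E-box and 37.4% a CCAAT box.

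Adsl encodes adenylosuccinate lyase, which acts both in ring building and in the branch from inosine monophosphate to AMP. It read 3160 in primitive HSC and 1802 in maturing HSC, a log2 ratio of 0.81 that turned to -0.17 on scaling to the hybridisation controls. Adss encodes adenylosuccinate synthase, the enzyme just before Adsl in the AMP branch. Adss read 1052 in primitive HSC and 4526 in maturing HSC, a log2 ratio of -2.10, and 3.93% of measured genes had a lower ratio. The consecutive enzymes of the AMP branch thus had ratios of opposite sign at the main setting, each from 1 probe set. The Adsl ratio of 0.81 lay within the spread of 0.82 between probe sets of a gene. Adssl1, a second adenylosuccinate synthase gene, was under the floor on both arrays (147.5 in primitive HSC and 168.5 in maturing HSC).

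Prps1 encodes a PRPP synthetase, which makes the ribose donor of both routes and of salvage. Its own probe set read 2419 in primitive HSC and 5273 in maturing HSC (log2 ratio -1.12). A further probe set is annotated to Prps1 and Prps1l3 together and was not used for either gene. It read 1986 in primitive HSC and 1879 in maturing HSC (0.08), so the signal of this shared probe set barely differed. Prps2, the second PRPP synthetase gene, gave -0.60 and -0.01 on its 2 probe sets.

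Of the 10 genes, 5 were at least 4-fold apart, where 8.13% of all measured genes were. With Umps and Ctps as bounds, 3 were at least 4-fold lower in primitive HSC, against 4.69% of measured genes. Scaled to the hybridisation controls, which lowers most ratios, 0 were at least 4-fold higher and 6 were lower, where 0.989% of measured genes were higher and 13.6% lower. At 2-fold, 8 were apart (33.3% of measured genes), with 2 higher (15.6% of measured genes) and 6 lower (17.6%). Leaving out the bounds, the median was -0.76 over the remaining 7, and it was 0.09 over all genes without bounds. The genes were listed with earlier results of these data known, so these counts describe them and are not a test.

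**Figure D2:**
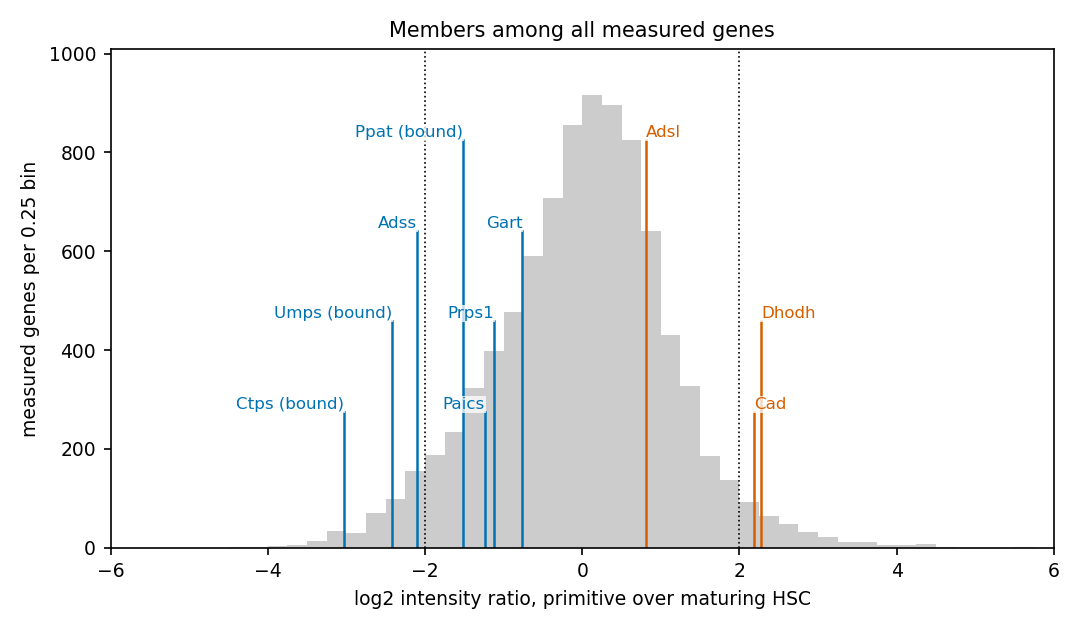
Histogram of log2 ratios (primitive over maturing HSC) of the 8852 measured genes in bins of 0.25, with the 10 genes as labelled lines and 4-fold as dotted lines. Line heights serve only to separate the names. Cad and Dhodh lie beyond the upper dotted line, and Ctps, Umps and Adss beyond the lower one.

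The list of other de novo enzymes holds the rest of the pathway and the isoforms of its enzymes. Of its 12 genes, 7 had a probe set of their own and 6 were measured. Of these, 5 were lower (47.3% of all measured genes) and 1 was higher in primitive HSC. Their median was -1.0, but -0.60 over 7 genes with the floor at percentile 25 and -0.28 over 5 genes with the probe set of lowest mean intensity. Prpsap1, a regulatory partner of PRPP synthetase, was at least 4.65-fold lower in primitive HSC (403.8 in primitive HSC and 2049 in maturing HSC). Its paralogue Prpsap2 went the other way, by at least 2.03-fold (893.9 in primitive HSC and 426.3 in maturing HSC). Prps1l3 was at least 3.95-fold lower in primitive HSC, and Impdh1, the first enzyme of the branch to GMP, stood at -0.28. Pfas, Atic, Impdh2, Gmps and Prps1l1 were not analysed here.

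Salvage genes were split. Of 13 measured, 7 were higher (52.7% of all measured genes) and 6 lower in primitive HSC, and their median was 0.15. Adk, the adenosine kinase gene, was lowest at -3.53 (473.9 in primitive HSC and 5458 in maturing HSC), with probe sets from -3.53 to -1.88. Aprt, which salvages adenine, stood at 1.65 (7042 in primitive HSC and 2241 in maturing HSC). Hprt, which salvages hypoxanthine and guanine, stood at 0.26. Dguok was at least 4.30-fold lower in primitive HSC and Ada, adenosine deaminase, had a ratio of -1.85. The salvage median was between -0.70 and -0.0077 under 5 of the 10 alternative settings, so its sign depends on the setting. Nucleotide kinases, which phosphorylate the products of both routes, had 6 of 10 genes higher in primitive HSC, near the 52.7% of all measured genes. Their median was 0.34, which became -0.64 on scaling to the hybridisation controls. Nme2, a nucleoside diphosphate kinase gene, was 2.83-fold and the guanylate kinase gene Guk1 2.18-fold higher, while Cmpk2 was at least 2.39-fold and Ak3 at least 2.21-fold lower in primitive HSC.

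The lists of genes around the routes are read beside all measured genes, of which 33.3% were at least 2-fold apart. The share of all measured genes at least 2-fold lower in primitive HSC was 17.6%. Of 4 measured genes of folate one-carbon metabolism, which supplies formyl groups to the purine ring, 1 was at least 2-fold lower in primitive HSC, and the median was -0.62. That gene was Shmt2 at -1.45, whose 4 probe sets ran from -1.45 to 0.07. Mthfd2 at -0.65, Shmt1 at -0.60 and Aldh1l1 at -0.05 lay within the spread of 0.82 between probe sets of a gene. Of 6 measured pentose phosphate genes, the source of ribose 5-phosphate, 2 were at least 2-fold lower in primitive HSC, and the median was -0.35. Among them Rpia, ribose 5-phosphate isomerase, stood at -1.90 and Rpe was at least 2.93-fold lower in primitive HSC, while the transketolase gene Tkt stood at 0.60. Of 6 measured genes of deoxynucleotide supply, which draws on both routes for DNA, 3 were higher and 3 lower, and their median was -0.13. There, Rrm2 was at least 5.71-fold lower in primitive HSC on its brightest probe set, with probe sets from -2.51 to -0.62. The ribonucleotide reductase gene Rrm1 had probe sets from -2.56 to 1.33.

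**Figure D3:**
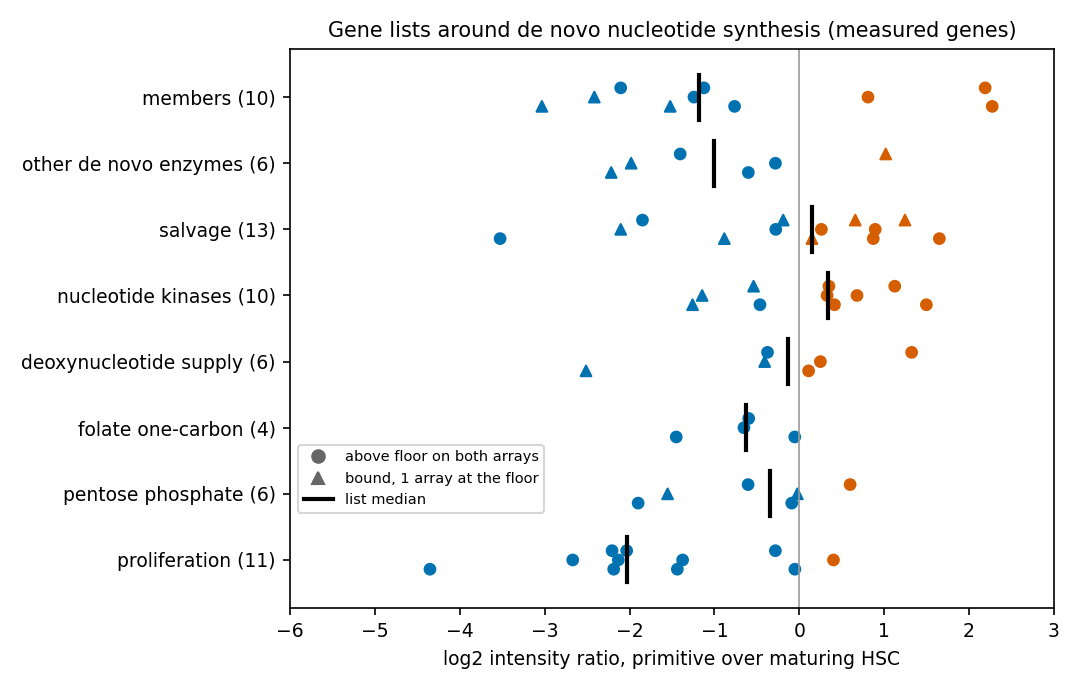
Log2 ratios (primitive over maturing HSC) of the measured genes of 8 lists, with circles for genes above the floor on both arrays, triangles for bounds and a black bar at each list's median. The median is -1.18 for the 10 genes, -1.0 for the other de novo enzymes, 0.15 for salvage and -2.03 for proliferation genes, and the salvage and nucleotide kinase medians turn negative under some settings.

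Proliferation genes were lower in primitive HSC as well. Of 11 measured, 10 were lower (47.3% of all measured genes), 6 of them at least 4-fold (4.69% of all measured genes), with a median of -2.03. Pcna at -0.05 and Cdk1 at -0.28 lay within the spread of 0.82 between probe sets of a gene. Mcm3 was the exception at 0.40, with probe sets from -2.14 to 1.17. Mcm7, a subunit of the replicative helicase, read 1266 in primitive HSC and 25865 in maturing HSC (-4.35), and Mcm6 stood at -2.67. Probe sets ran from -4.35 to -2.11 for Mcm7 and from -2.67 to -1.53 for Mcm6. The part of the proliferation genes in the ratios of the 10 genes was not tested. Cad and Dhodh went against the direction of this list. Adsl did so at the main setting only by 0.81, within the spread of 0.82.

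As a check of the cell type, 7 of 10 HSC marker genes on the array were above the floor in both populations, among them Kit (3802 in primitive HSC and 5053 in maturing HSC) and Cd34 (3320 in primitive HSC and 6237 in maturing HSC). Of the 9 measured, 5 were higher and 4 lower in primitive HSC. Procr, the only one past 4-fold, read 11571 in primitive HSC and 1895 in maturing HSC. Tek was at least 2.21-fold lower in primitive HSC, Hlf had probe sets from -1.25 to -0.0023, and Tie1 was under the floor on both arrays. Of 10 neutrophil and monocyte markers, 7 were higher and 3 lower in primitive HSC, and they summed to 131746 in primitive HSC and 69395 in maturing HSC. The brightest, S100a8, read 46743 in primitive HSC and 19527 in maturing HSC. Mpo (270.1 in primitive HSC and 2587 in maturing HSC, at least 5.87-fold lower in primitive HSC) was the only one past 4-fold, and Ltf read 736.9 in primitive HSC and 2284 in maturing HSC (-1.63). Of 6 T and natural killer cell markers, 4 were measured, 3 higher and 1 lower in primitive HSC. Cd3d (8673 in primitive HSC and 44.2 in maturing HSC) and Klrd1 passed 4-fold toward primitive HSC. Cd3e and Cd3g were under the floor on both arrays, and Nkg7 read 6299 in primitive HSC and 7933 in maturing HSC (-0.33). B cell markers summed over 6 genes to 2428 in primitive HSC and 2471 in maturing HSC, with Pax5 and Ebf1 under the floor on both arrays. Erythroid markers summed over 5 genes to 3366 in primitive HSC and 1654 in maturing HSC, but 3 of them (Hba-a1, Car1 and Alas2) were under the floor on both arrays. Klf1 read 1651 in primitive HSC and 444.5 in maturing HSC. Epor went the other way, with 781.1 in primitive HSC and 952.9 in maturing HSC. The part of such cells in the ratios above was not tested. The hybridisation controls, spiked bacterial and phage transcripts, gave a median log2 ratio of 0.97 toward primitive HSC. The 3-prime over 5-prime signal ratio of beta-actin was 2.07 in primitive HSC and 1.61 in maturing HSC, and that of Gapdh was 0.71 in primitive HSC and 0.70 in maturing HSC.

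Across 10 alternative settings of scaling, floor and probe set choice, Cad and Dhodh were higher and Umps, Ctps, Ppat, Paics, Adss and Prps1 were lower in primitive HSC every time. Gart kept its direction in 8 of 9 settings that gave a value and Adsl in 9 of 10. Not every setting could change a gene. Ctps, Adsl, Adss and Prps1 have 1 probe set each, so the settings of probe set choice returned their main values. The deposited values already had nearly equal trimmed means, so that setting barely differed from the main one. The probe set that Prps1 shares with Prps1l3 entered no setting. The size moved more than the sign, with Cad between 1.05 and 2.43, Dhodh between 1.25 and 2.37, Ctps between -3.54 and -1.81, Umps between -2.92 and -0.46, Paics between -3.23 and -1.24 and Ppat between -2.76 and -0.07. The values nearest to 0 came from a floor at percentile 75 for Cad, Dhodh and Ctps, and from the dimmest probe set for Umps and Ppat.

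**Figure D4:**
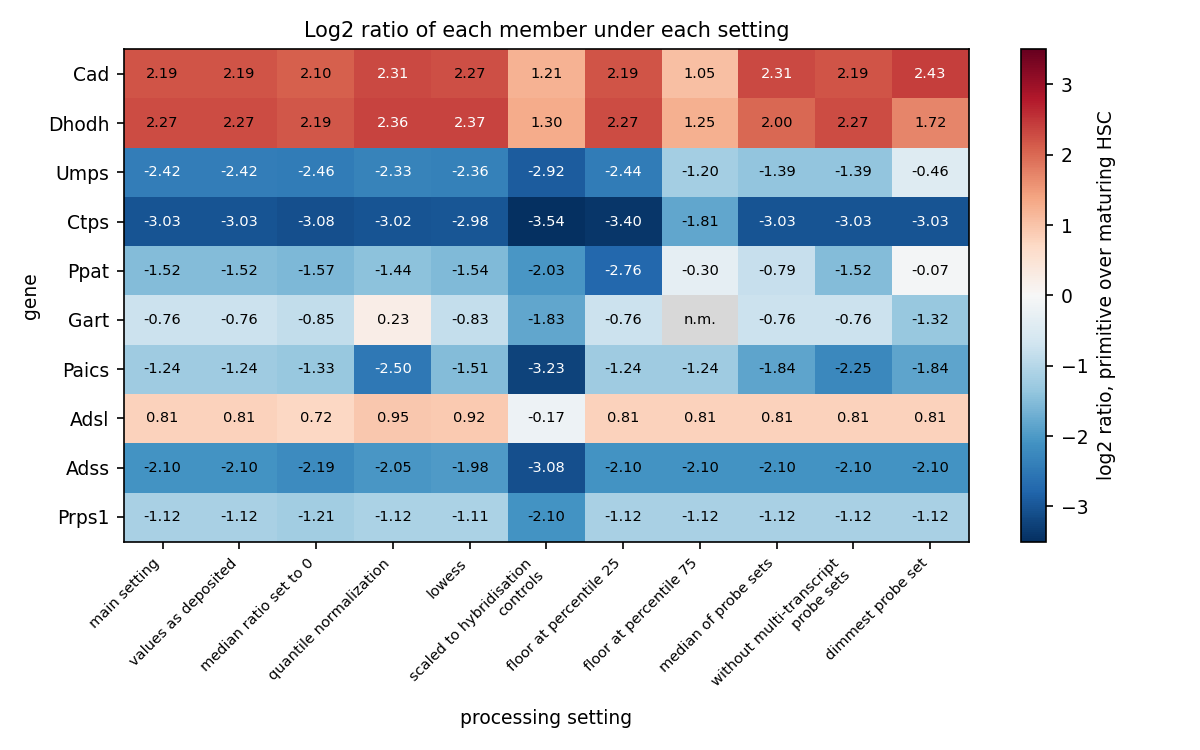
Log2 ratio (primitive over maturing HSC) of each of the 10 genes (vertical axis) at the main setting and under 10 alternatives (horizontal axis), with the value in each cell and n.m. where a gene was under the floor on both arrays. The sign changes only for Gart after quantile normalization (0.23) and for Adsl on scaling to the hybridisation controls (-0.17). After each scaling, the probe set that represents a gene was chosen anew.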

How the data were processed

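Transcripts of primitive and maturing HSC were measured on 1 Affymetrix array each. The deposited intensities come from MAS5, as the submitters' processing notes say, whose version and genome build were not stated there. According to the labels' protocols, cDNA primed on poly(A) was PCR amplified, selected by size, cloned in phage and transcribed into biotinylated cRNA, and each step can change a transcript's share. The 2% trimmed means were 1000.6 (primitive) and 1000.4 (maturing), so total RNA per cell cannot be compared. Detection calls were not used.

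Of 22690 probe sets, 64 were controls, 20380 had 1 gene symbol in the platform annotation, and the remaining 2246, 691 of them with several symbols, were not used. Intensities were brought to an equal trimmed mean and floored at 441.0 (percentile 50), and log2 ratios of primitive over maturing were taken, with 4-fold as the threshold. The members and lists were chosen with earlier results of these data known. All members, the isoforms of member enzymes, up to 4 genes of each other list with the largest ratio or bound, and up to 2 for marker lists were to be named. Hprt, Impdh1 and several marker genes were added after their values were seen, as were the promoter motifs. Steps were tested on simulated data, with large ratios planted in genes well above the floor and noise below the spread between probe sets. That test does not show how the steps behave for genes near the floor. Alternatives are in the closing section. Python 3.11.15, numpy 2.4.6, pandas 2.3.3, statsmodels 0.14.6 and matplotlib 3.10.9 were used.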

Additional observations from a re-analysis of the deposited data

How the results depend on the processing

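With 1 array per population, counts are small and no p-value stands behind them. No paired analysis was possible because each population has only 1 array. The main setting had 5 genes at least 4-fold apart, 2 higher and 3 lower in primitive HSC. Scaling to the hybridisation controls gave 0 higher and 6 lower (0.989% and 13.6% of measured genes) and a median log2 ratio of -2.07, but there the median of all genes without bounds was -0.69, against 0.09 in the main setting, and higher genes made up 6.79% of all 4-fold calls, against 42.4%. The floor at percentile 75, which raises more low values, left 1 apart, 0 higher and 1 lower, and that share was 56.7%. The median of probe sets and the probe set of lowest mean intensity each gave 3 apart and 1 higher. A 2-fold threshold gave 8 apart and 6 lower, and an 8-fold threshold 1 apart, 0 higher and 1 lower. Under the other settings (deposited values, quantile normalization, lowess at fraction 0.3, centring on the median ratio, the floor at percentile 25, and dropping probe sets whose suffix marks several possible transcripts) the counts stayed within 1.5 times, and the median lay between -1.31 and -0.76 in all alternatives but the hybridisation scaling.

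Signs changed for Gart after quantile normalization (0.23) and for Adsl on scaling to the hybridisation controls (-0.17). The salvage median turned to -0.15 after quantile normalization, -0.20 after lowess, -0.70 on scaling to the hybridisation controls, -0.0077 with the floor at percentile 25 and -0.19 without the suffixed probe sets. The nucleotide kinase median turned to -0.64 on the hybridisation scaling and the deoxynucleotide median to 0.11 with the floor at percentile 75. After each scaling, the probe set of highest mean intensity was chosen anew, so a gene can be read from another probe set. Beyond this choice, the causes of these changes were not tested. Low signal limits Cad and Dhodh in maturing HSC and Umps, Ctps and Ppat in primitive HSC, which lay near or under the floor.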
